A study of Mus musculus with 11 samples.

Results

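The genes described here set whether a neuron can make and package GABA or load glutamate into synaptic vesicles. They are 6 of the 22238 protein-coding genes of the mm9 annotation: Gad1, Gad2 and Slc32a1 for GABA, and the vesicular glutamate transporters (VGLUT) Slc17a6, Slc17a7 and Slc17a8. They were chosen by name, and all open chromatin regions that overlap a gene body extended by 20 kb on each side (its window) were taken. These windows hold 54 of the 131942 deposited regions, 30 for the GABA genes and 24 for the VGLUT genes. Open chromatin was measured by ATAC-seq, in which a transposase inserts adapters into accessible DNA and places where insertions gather are called as peaks.

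Dopaminergic (DA) libraries came from TH-GFP embryos, in which the rat Th promoter drives GFP, as GFP+ cells sorted from ventral mesencephalons at embryonic day 14.5. Serotonergic (5-HT) libraries came from embryos of the same age that carried a Cre driver and ROSA YFP, as YFP+ cells sorted from hindbrain rhombomeres r1 to r3. YFP marks cells with a history of Cre expression in this region, so the group is limited by the driver. Males of each line were mated with Swiss females, tissue of several embryos was pooled for each sort, and the series holds 3 DA and 2 5-HT ATAC-seq libraries among its 11 samples. The other 6 samples are RNA-seq and were not analysed here.

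Gad1 and Gad2 encode GAD67 and GAD65, the enzymes that make GABA from glutamate, and Slc32a1 encodes VGAT, which loads GABA and glycine into vesicles. Slc17a6, Slc17a7 and Slc17a8 encode VGLUT2, VGLUT1 and VGLUT3, which load glutamate. In the brain, VGLUT2 is typical of diencephalic and brainstem neurons and is found in part of the midbrain DA neurons, VGLUT1 is typical of the cerebral and cerebellar cortex, and VGLUT3 is known from some 5-HT neurons. GABAergic neurons lie close to both monoaminergic populations.

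For each library the deposited files give a score for every region, and 0 stands for no peak. Its scale is unnamed, so raw scores of different libraries may not be on equal terms, and ranks among the peaks of the same library are given for the main regions. The lowest score of a peak was 3.45, 3.04 and 3.03 in DA replicates 1 to 3 and 3.37 and 2.83 in 5-HT replicates 1 and 2. The numbers of peaks were 52861, 93055 and 94351 in DA replicates 1 to 3, and 38772 and 22879 in 5-HT replicates 1 and 2. Read depth is unknown, and these numbers are the only measure of yield in the files. Each 5-HT sort also gave fewer cells than any DA sort, so that cell input differed between the groups along with the cell type. A share of regions with a peak is therefore set beside the share over all regions of the same library.

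The labels were checked on marker promoters, from 1 kb upstream to 100 bp downstream of the TSS of a protein-coding transcript. All 9 DA markers had a promoter peak in the 3 DA libraries, and 6 of 9 had one in each 5-HT library. Over all protein-coding genes the share was 59.2%, 63.0% and 61.3% in DA replicates 1 to 3 and 57.7% and 49.1% in 5-HT replicates 1 and 2. The promoters of Th, the rate-limiting enzyme of dopamine synthesis, and of Lmx1a, a floor plate factor, had a peak in every DA library but in no 5-HT library. Of 7 5-HT markers, 5, 6 and 5 had a promoter peak in DA replicates 1 to 3, and 5 and 3 in 5-HT replicates 1 and 2. The promoter of the serotonin transporter gene Slc6a4 had a peak in every DA library but in no 5-HT library, which goes against its role as a 5-HT marker. Fev, a 5-HT factor, had a promoter peak of score 3.88 in 5-HT replicate 1 and in no other library. The Gata3 window had a relative mean score (defined below) of 1.72 and 1.27 in 5-HT replicates 1 and 2, above the DA values of 0.237, 0.456 and 0.532. Counts of 5-HT marker promoters thus did not set the 5-HT libraries apart. Gata3, also a GABAergic lineage factor, was picked after its values were seen. Its window was 1 of 7 5-HT marker windows with both 5-HT values above all DA values, against 31.1% of all gene windows. At 2 of the 7, Tph2 and Slc6a4, all DA values lay above both 5-HT values. The median difference (DA minus 5-HT) of the 7 was 0.206. By staining, the study found the serotonin-making enzyme in nearly all sorted YFP+ cells and Th in most sorted GFP+ cells. From its RNA-seq of the GFP+ cells it reports high expression of GABAergic markers and proposes a slight contamination by GABAergic neurons. In its view these could make up the sorted cells without Th. It describes DA markers as strongly expressed there, unlike glutamatergic markers. It also reports expression of DA and GABAergic genes in the YFP+ cells.

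Taken over the windows, the VGLUT genes had a peak at a larger share of their regions than the GABA genes in all libraries but 5-HT replicate 1. A peak lay at 13, 21 and 19 of the 30 GABA regions in DA replicates 1 to 3 (43.3%, 70.0% and 63.3%), and at 16 and 3 in 5-HT replicates 1 and 2 (53.3% and 10.0%). Of the 24 VGLUT regions, the DA libraries had a peak at 13, 24 and 20 (54.2%, 100% and 83.3%), and the 5-HT libraries at 9 and 6 (37.5% and 25.0%). Over all regions these shares were 40.1%, 70.5%, 71.5%, 29.4% and 17.3%. The GABA share in the DA libraries was thus close to that of all regions, with a 95% Wilson interval of 45.5 to 78.1% in DA replicate 3, which covers counting error only. The 5-HT libraries lay on either side of it, with an interval of 36.1 to 69.8% in replicate 1 and of 3.46 to 25.6% in replicate 2.

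The mean GABA share was 58.9% ± 13.9 (SD, n = 3) in DA and 31.7% ± 30.6 (SD, n = 2) in 5-HT libraries, a difference of 27.2 percentage points with overlapping groups. It was 5.56 without 5-HT replicate 2 and 48.9 without 5-HT replicate 1. The mean VGLUT share was 79.2% ± 23.2 (SD, n = 3) in DA and 31.2% ± 8.84 (SD, n = 2) in 5-HT libraries, a difference of 47.9 percentage points with groups that did not overlap. The share over all regions differed by 37.3 percentage points in the same direction. With each library limited to its 22879 highest-scoring peaks, 2, 3 and 2 GABA regions kept a peak in the DA libraries against 5 and 3 in the 5-HT libraries, which turned the GABA difference to -5.56 percentage points. Under the same limit 7, 9 and 8 VGLUT regions kept a peak in the DA libraries against 5 and 6. In bulk libraries such as these, fewer cells of a type and less accessible DNA per cell cannot be told apart.

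**Figure D1:**
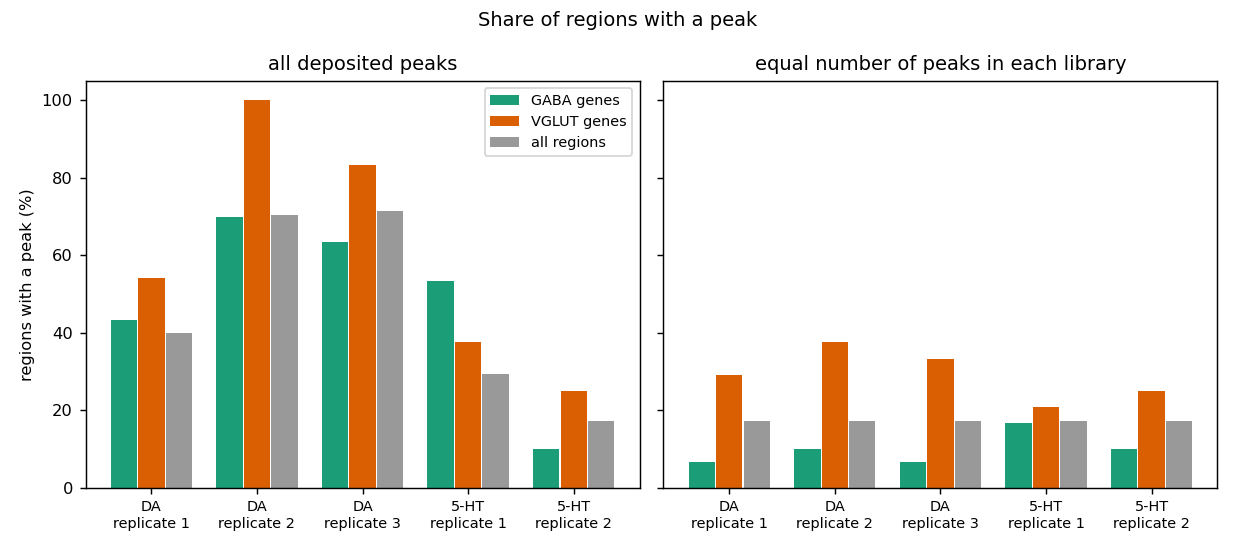
Bars give the percentage of regions with a peak in each of the 5 libraries, for the 30 regions of the GABA genes, the 24 regions of the VGLUT genes and all 131942 regions, with all deposited peaks (left) and with the 22879 highest-scoring peaks of each library (right). At equal numbers the VGLUT bars stand above the bar of all regions, 17.3%, in the 5 libraries, and the GABA bars stand below it.

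Gad1 (ENSMUSG00000070880.4, chr2:70391129-70440071, plus strand) carried 10 regions, 2 of them at its promoters, 7 in introns and 1 intergenic. The region at the main TSS (chr2:70398823-70400427) had a peak in all 5 libraries, with scores of 4.84, 4.45 and 4.12 in DA replicates 1 to 3 and of 4.6 and 3.19 in 5-HT replicates 1 and 2. These scores ranked above 44.5%, 50.3% and 52.4% of the DA peaks and above 53.3% and 24.8% of the 5-HT peaks. In the DA libraries a higher score lay 3658 bp upstream of that TSS (chr2:70396283-70396599). This region counts as intronic because the annotated gene starts farther upstream. There the scores were 7.30, 10.2 and 9.86 in the DA libraries, 4.43 in 5-HT replicate 1 and 0 in 5-HT replicate 2. All DA values at this upstream region exceeded both 5-HT values, but the region was chosen by its lowest DA score. The leading region of each other gene was chosen in the same way. Such a choice favours the DA libraries, so that no difference between the cell types is read from these regions alone.

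Of the 10 Gad1 regions, 6, 7 and 7 had a peak in the DA libraries, 6 in 5-HT replicate 1 and 1 in 5-HT replicate 2. A second promoter region (chr2:70400837-70401786) scored 3.21 in DA replicate 3 and 3.52 in 5-HT replicate 1 and 0 elsewhere. An intronic region far downstream (chr2:70436280-70436996) had a peak in every DA library, of 3.60, 4.18 and 3.66, but in no 5-HT library. The most upstream annotated TSS of Gad1, at position 70391129, had no region within 5154 bp. The 2 5-HT libraries differed more from each other at Gad1 than the DA libraries did, with a relative mean score of 1.64 and 0.436.

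Gad2 (ENSMUSG00000026787.3, chr2:22477725-22549394, plus strand) had the broadest region of the 6 genes, 3600 bp at its promoter (chr2:22476253-22479852), wider than 99.9% of all regions. It had a peak in all 5 libraries, scoring 5.03, 4.71 and 4.82 in the DA libraries and 4.96 and 3.41 in the 5-HT libraries. The score of 5-HT replicate 1 lay among the DA values, and that of 5-HT replicate 2 was the lowest. In the DA libraries the mean share of Gad2 regions with a peak, 44.4% ± 17.3 (SD, n = 3), was the lowest of the 6 genes.

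A peak was found at 3, 7 and 6 of the 12 Gad2 regions in DA replicates 1 to 3 and at 7 and 1 in 5-HT replicates 1 and 2. Of these regions, 3 had a peak in 5-HT replicate 1 and in no other library, at chr2:22475285-22475785 upstream of the promoter, chr2:22483738-22484020 in an intron and chr2:22552320-22552644 downstream of the gene, with scores of 4.00, 3.54 and 3.37. None of them had a peak in 5-HT replicate 2. The last score, 3.37, was the lowest of any peak in 5-HT replicate 1. The leading region outside the promoter, chosen by its lowest DA score, was intergenic (chr2:22561595-22562262). It scored 4.51, 5.14 and 4.17 in the DA libraries, where the choice favoured a peak, and 0 in both 5-HT libraries. Of the 12 regions 7 lay in introns of Gad2, 3 were intergenic and 1 lay in a coding exon of the neighbouring gene Myo3a.

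Slc32a1 (ENSMUSG00000037771.10, chr2:158436494-158441484, plus strand) had a small body of 4991 bp and 8 regions in its window. The region over its TSS (chr2:158436305-158436817) scored 0, 3.39 and 3.18 in DA replicates 1 to 3 and 3.69 and 0 in 5-HT replicates 1 and 2. A second promoter region, centred 946 bp upstream (chr2:158435347-158435749), scored 5.07, 4.76 and 3.92 in the DA libraries and had no peak in the 5-HT libraries. The TSS itself thus had a peak in 3 of 5 libraries, of both cell types, while the region just upstream had one in DA libraries alone.

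Of the 8 regions in the Slc32a1 window, the DA libraries had a peak at 4, 7 and 6 and the 5-HT libraries at 3 and 1. Part of them belongs to the neighbour Actr5, a chromatin remodelling subunit, whose promoter region (chr2:158450369-158451376) had a peak in all 5 libraries. The leading region outside the Slc32a1 promoter lay in an intron of Actr5 (chr2:158454684-158454850) and scored 4.89, 7.27 and 5.97 in the DA libraries and 0 in both 5-HT libraries. An intergenic region 15461 bp upstream of Slc32a1 (chr2:158420759-158421307) also had a peak in the 3 DA libraries only. In 5-HT replicate 2 the sole peak of the window was the one at the Actr5 promoter.

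Slc17a6 (ENSMUSG00000030500.5, chr7:58877200-58926495, plus strand) was the member with the clearest difference between the cell types. A peak was found at 8, 12 and 10 of its 12 regions in DA replicates 1 to 3 and at 2 and 1 in 5-HT replicates 1 and 2. No annotated promoter of another protein-coding gene lies in this window. The share of regions with a peak was 83.3% ± 16.7 (SD, n = 3) in DA and 12.5% ± 5.89 (SD, n = 2) in 5-HT libraries. The difference of 70.8 percentage points had a two-sided exact permutation p of 0.1, the smallest that 3 against 2 libraries can give, so that missing a usual threshold does not show that there is no difference. Over all regions the shares differed by 37.3 percentage points, likewise without overlap. The p-values here cover only the spread among the libraries.

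The Slc17a6 promoter region (chr7:58876712-58878281) scored 9.97, 12.9 and 12.8 in the DA libraries, 3.65 in 5-HT replicate 1 and 0 in 5-HT replicate 2. In the DA libraries it ranked above 90.7%, 95.4% and 97.1% of the peaks, and in 5-HT replicate 1 above 20.2%. The leading region outside the promoter lay 5665 bp downstream of the TSS, in an intron (chr7:58882205-58883526). It scored 9.93, 12.9 and 11.2 in the DA libraries, above 90.6%, 95.3% and 95.4% of their peaks, without a peak in the 5-HT libraries. A further intronic region (chr7:58887766-58889125) scored 8.70, 12.1 and 9.28 in the DA libraries and 0 and 2.98 in the 5-HT libraries. These 3 regions ranked in the upper part of each DA library, above the Gad1, Gad2 and Slc32a1 promoter regions of the same library.

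Between them, a broad intronic region of 2697 bp (chr7:58878988-58881684) scored 5.45, 5.67 and 4.87 in the DA libraries, 3.45 in 5-HT replicate 1 and 0 in 5-HT replicate 2. An intergenic region at chr7:58945109-58945805, downstream of the gene, scored 7.13, 8.21 and 6.97 in the DA libraries and 0 in both 5-HT libraries. At 7 of the 12 Slc17a6 regions the lowest DA score exceeded the highest 5-HT score, which was the case for 29.8% of all regions. The other members counted 2 of 10 for Gad1, 1 of 12 for Gad2, 3 of 8 for Slc32a1, 3 of 5 for Slc17a7 and 2 of 7 for Slc17a8. By rank within the library 1 of these Slc17a7 regions did not keep this order (chr7:52437554-52438133, above 47.0% of the peaks in DA replicate 1 against 56.9% and 72.3% in the 5-HT libraries), and neither did the leading Slc17a8 region. With 22879 peaks in each library, 4, 5 and 4 of the 12 Slc17a6 regions kept a peak in the DA libraries against 0 and 1 in the 5-HT libraries.

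Slc17a7 (ENSMUSG00000070570.4, chr7:52419291-52431508, plus strand) had no region at its promoter, and the nearest region ended 1359 bp before its TSS. That region (chr7:52417235-52417932) scored 6.57, 9.80 and 7.0 in the DA libraries and 4.82 and 3.54 in the 5-HT libraries. The leading region of the window, with 10.2, 15 and 11.0 in the DA libraries and 6.78 and 3.73 in the 5-HT libraries, is the shared promoter of the neighbours Aldh16a1 and Pih1d1 (chr7:52409524-52410769). Another region with a peak in all 5 libraries was intergenic (chr7:52437554-52438133). The promoter of Pth2, which also lies in this window, had no region. Inside the gene body, 2 intronic regions had a peak in DA replicate 2 alone, of 3.24 and 3.07. The high level of the Slc17a7 window thus came from regions outside the gene body and its promoter, in both cell types.

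Slc17a8 (ENSMUSG00000019935.9, chr10:89036765-89083998, minus strand) had 7 regions. Its promoter region (chr10:89083837-89084341) scored 0, 4.18 and 4.14 in DA replicates 1 to 3, 3.37 in 5-HT replicate 1 and 0 in 5-HT replicate 2. The 3.37 was the lowest score of any peak in 5-HT replicate 1. A second promoter region (chr10:89084868-89085557) had a peak in DA replicates 2 and 3 only. The leading region outside the promoter was intergenic, 8943 bp upstream (chr10:89092795-89093087), and scored 8.49, 12.8 and 8.30 in the DA libraries and 7.47 and 0 in the 5-HT libraries. It ranked above 84.3%, 95.3% and 88.7% of the DA peaks and above 89.8% of the peaks of 5-HT replicate 1.

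Farther upstream of Slc17a8, a region at chr10:89097876-89098056 scored 0, 5.36 and 5.39 in the DA libraries and 5.29 and 6.06 in the 5-HT libraries. With 6.06, 5-HT replicate 2 had its highest score over all 54 regions there, above 89.8% of its peaks. A region in an intron (chr10:89055691-89055892) had a peak in every DA library but in no 5-HT library, of 3.79, 4.98 and 4.94. A peak was found at 2, 7 and 7 of the 7 Slc17a8 regions in the DA libraries, so that DA replicate 1 stood apart, and at 4 and 2 in the 5-HT libraries.

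**Figure D2:**
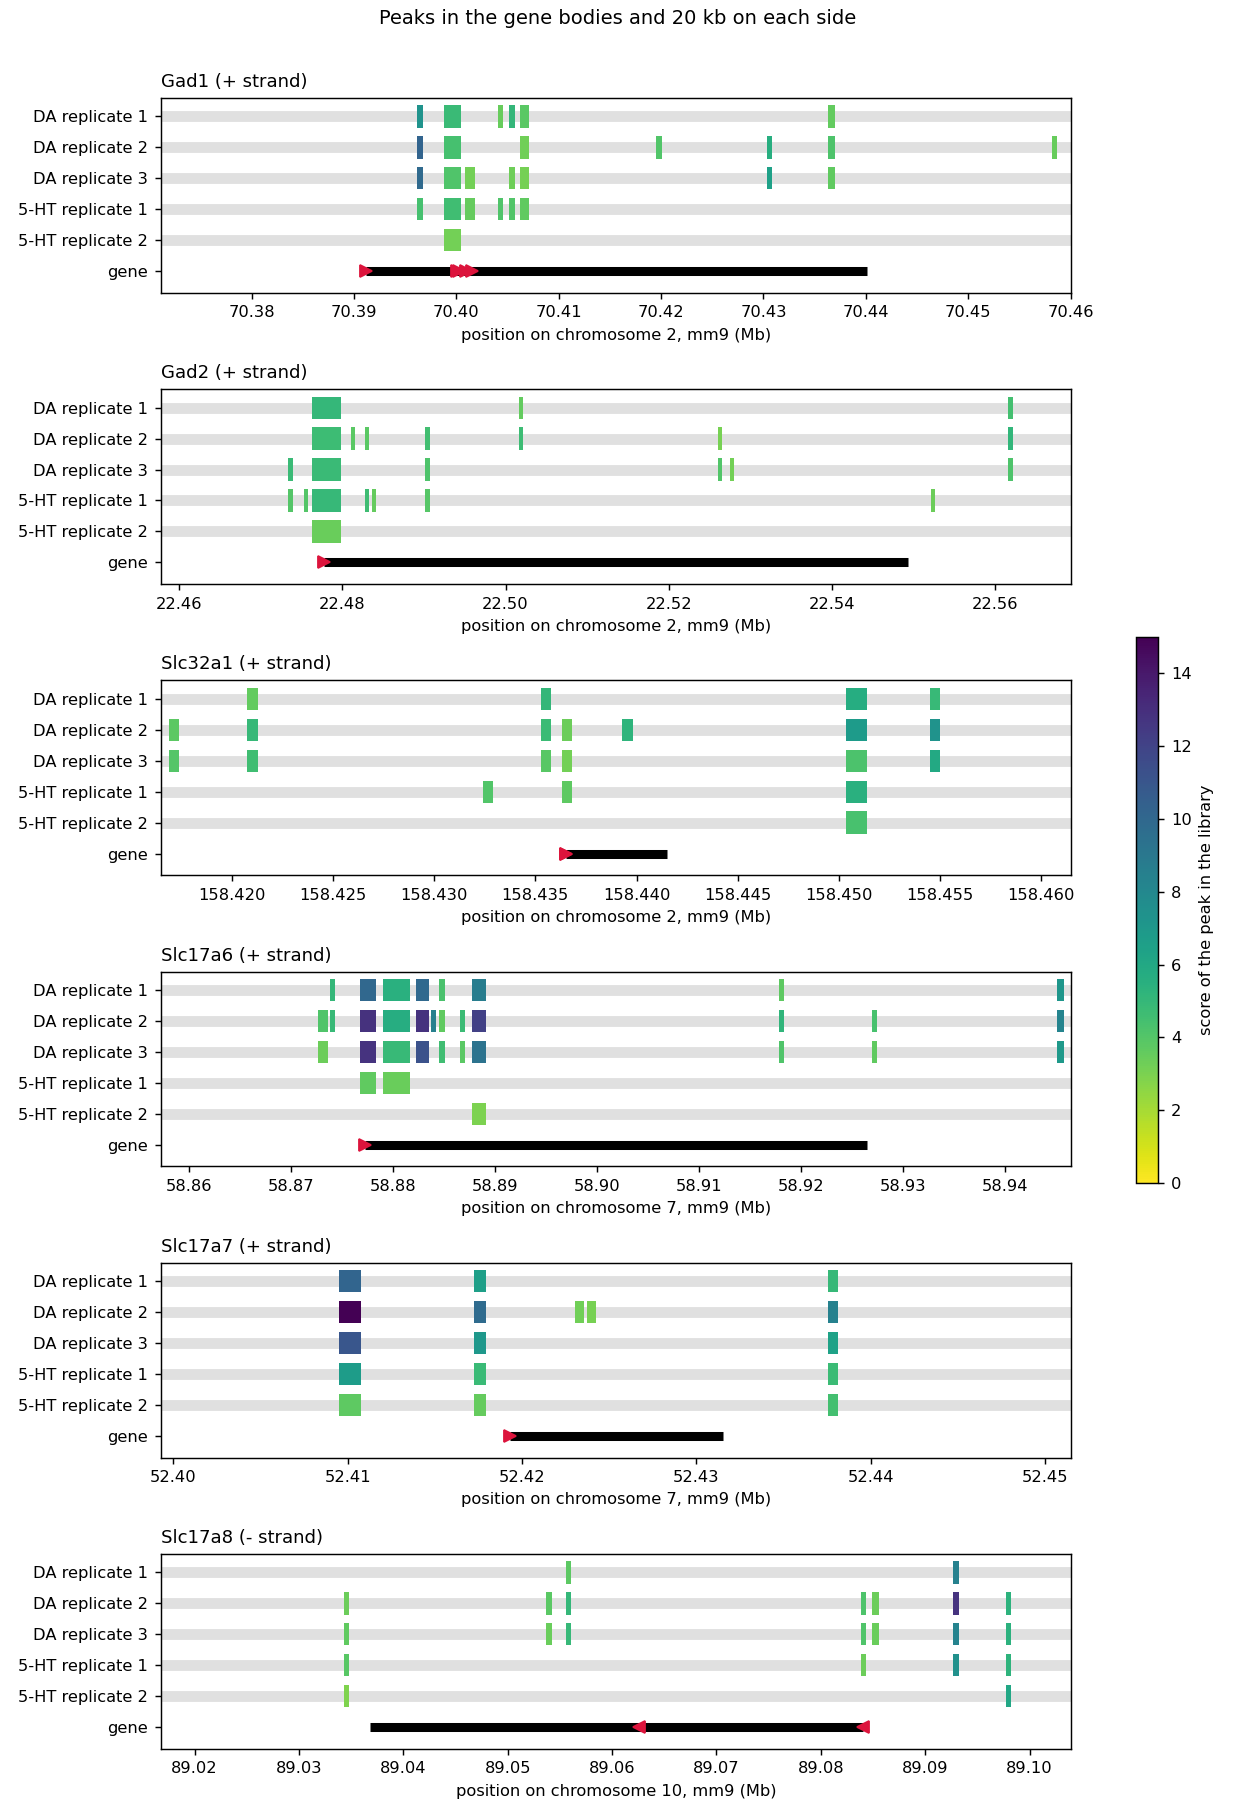
Each panel shows 1 window along the chromosome (mm9 position in Mb), with a lane for each of the 5 libraries, boxes for regions with a peak coloured by their score, a black bar for the gene body and red arrowheads for the TSSs of protein-coding transcripts. Narrow regions are drawn at a minimum width so that they can be seen. The Slc17a6 panel has 8, 12 and 10 boxes in the DA lanes and 2 and 1 in the 5-HT lanes, and the Gad2 panel has 7 boxes in the lane of 5-HT replicate 1.

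To compare genes within a library, the mean score over the regions of a window, zeros included, was divided by the mean over all regions of that library. This relative mean score is 1 for a window like the average region. For Slc17a6 it was 1.85, 1.80 and 1.46 in DA replicates 1 to 3 and 0.397 and 0.339 in 5-HT replicates 1 and 2. The DA mean of 1.70 ± 0.211 (SD, n = 3) was 4.62 times the 5-HT mean of 0.368 ± 0.0406 (SD, n = 2), without overlap (two-sided exact permutation p = 0.1, the smallest possible). In both 5-HT libraries Slc17a6 was the lowest of the 6 genes, and in DA replicates 1 and 3 it was the highest.

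The other VGLUT genes went the other way on this scale. Slc17a7 had 1.78, 1.96 and 1.32 in the DA libraries and 2.19 and 3.21 in the 5-HT libraries, and Slc17a8 had 0.718, 1.34 and 1.29 against 1.92 and 1.75. For each of them both 5-HT values lay above the 3 DA values (two-sided exact permutation p = 0.1). With 22879 peaks in each library this held for Slc17a8, while Slc17a7 overlapped, with 2.27, 3.66 and 3.04 against 3.12 and 3.21. Each DA value exceeded both 5-HT values in 10.4% of 20004 protein-coding gene windows with a region, and in 1 of the 6 windows described here. Both 5-HT values exceeded each DA value in 31.1% of the windows and in 2 of these 6, a share close to that of all genes. The difference of the means at Slc17a6, 1.33, was larger than in 98.7% of all windows, and those at Slc17a7 and Slc17a8, -1.02 and -0.718, were larger than in 24.5% and 33.8%.

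With all peaks, the relative mean scores of the GABA genes overlapped between the cell types. Gad1 had relative mean scores of 1.15, 0.871 and 0.913 in the DA libraries and 1.64 and 0.436 in the 5-HT libraries (two-sided exact permutation p = 0.8). Gad2 had 0.447, 0.614 and 0.569 against 1.59 and 0.389 (exact permutation p = 0.5), and Slc32a1 had 0.986, 1.12 and 0.878 against 1.11 and 0.743 (exact permutation p = 0.6). In each of these genes the DA values lay between the 5-HT values or overlapped them. The share of regions with a peak did not overlap at Slc32a1, with 50 to 87.5% in the DA libraries and 12.5 to 37.5% in the 5-HT libraries (exact permutation p = 0.2). The share over all regions did not overlap either, with 40.1 to 71.5% against 17.3 to 29.4%. At equal numbers of peaks the Slc32a1 shares overlapped, with 12.5%, 25% and 0% in DA replicates 1 to 3 and 12.5% in each 5-HT library. With 22879 peaks in each library, the relative mean score over all GABA regions was 0.293, 0.447 and 0.339 in DA replicates 1 to 3 and 0.768 and 0.499 in 5-HT replicates 1 and 2, so that all DA values lay below both 5-HT values. At Gad2 no DA library then kept a peak, while Gad1 and Slc32a1 still overlapped.

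In the DA libraries the order of the relative mean scores was Slc17a6 (1.70), Slc17a7 (1.68), Slc17a8 (1.11), Slc32a1 (0.994), Gad1 (0.979) and Gad2 (0.544). Slc17a6 and Slc17a7 differed by less than the SD of either, and Slc17a8, Slc32a1 and Gad1 by less than the SD of Slc17a8, 0.344, while Gad2 lay below the 5 other genes in each DA library. In the 5-HT libraries the order was Slc17a7 (2.70), Slc17a8 (1.83), Gad1 (1.04), Gad2 (0.989), Slc32a1 (0.927) and Slc17a6 (0.368). The 3 GABA genes there differed by less than the SD of Gad1, 0.850.

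Within a library, the relative mean score over all GABA regions was 0.826, 0.834 and 0.766 in DA replicates 1 to 3, against 1.5, 1.70 and 1.38 over all VGLUT regions. In 5-HT replicate 1 the GABA regions were the higher ones, with 1.48 against 1.21, and in 5-HT replicate 2 the VGLUT regions, with 0.499 against 1.35. The means differed between DA and 5-HT libraries by -0.180 for the GABA regions, with overlapping groups, and by 0.245 for the VGLUT regions, without overlap. The VGLUT difference was 1.03 within the gene bodies alone, 0.721 with 22879 peaks in each library, -0.248 with windows of 50 kb and -0.135 with each gene weighted equally. Without 5-HT replicate 1 the GABA difference was 0.310. Without Slc17a6, a choice made after the values were seen, the VGLUT difference turned to -0.844, so that the direction for the VGLUT regions rested on Slc17a6.

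**Figure D3:**
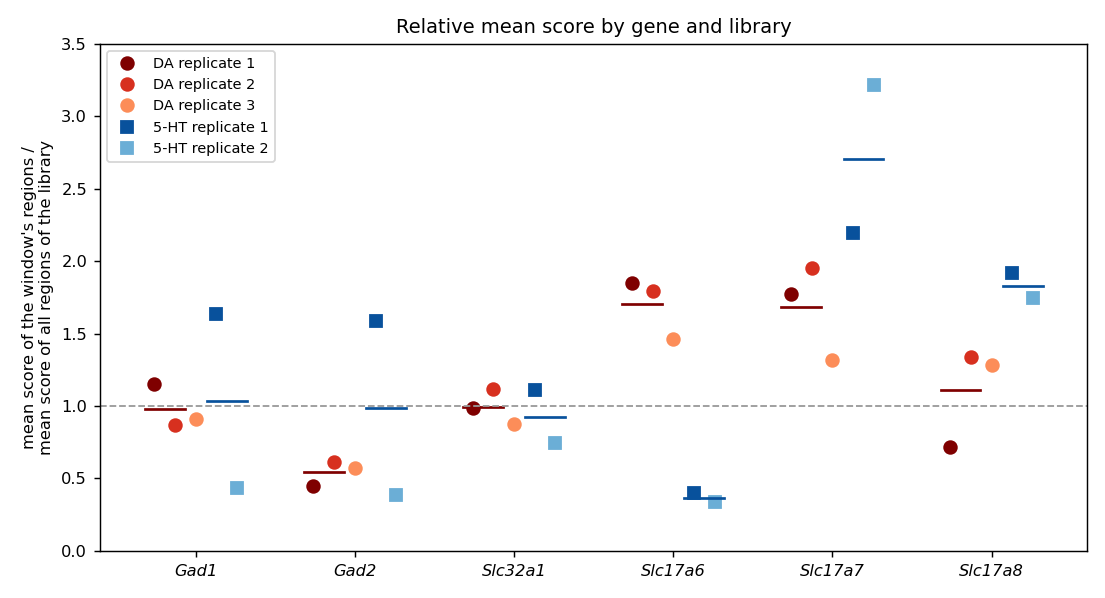
Points give the relative mean score (mean score of the regions of a window divided by the mean over all regions of the library, no unit) for the 6 genes in the 3 DA libraries (circles) and the 2 5-HT libraries (squares), with lines at the group means and a dashed line at 1. The 5-HT squares of Slc17a6, at 0.397 and 0.339, lie below its DA circles, which start at 1.46, while those of Gad1 and Gad2 lie far apart.

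A peak in every DA library but in no 5-HT library was present at 5 of 30 GABA regions (16.7%) and at 5 of 24 VGLUT regions (20.8%), against 13.4% of all regions. By gene these were 1 at Gad1, 1 at Gad2, 3 at Slc32a1, 4 at Slc17a6, 0 at Slc17a7 and 1 at Slc17a8. With 22879 peaks in each library, 0 of 30 GABA regions and 3 of 24 VGLUT regions had this pattern, all 3 at Slc17a6, against 2.14% of all regions. With all peaks, 0 of the 54 regions combined a peak in both 5-HT libraries with none in the DA libraries, against 0.389% of all regions. At equal numbers 2 of 30 GABA regions (1 at Gad1 and 1 at Gad2) and 1 of 24 VGLUT regions (at Slc17a8) did so, against 1.79% of all regions. With all peaks, a peak in 5-HT replicate 1 and in no DA library was present at 4 of 30 GABA regions (3 at Gad2 and 1 at Slc32a1) and at 0 of 24 VGLUT regions, against 3.86% of all regions.

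At the level of promoters, Gad1 and Gad2 had a peak in all 5 libraries, Slc32a1 and Slc17a6 in all libraries but 5-HT replicate 2, Slc17a8 in 3 libraries and Slc17a7 in none. Taking all promoter regions of a gene together, 0 of the 6 had a promoter peak in the 3 DA and in no 5-HT library, a pattern found in 1.94% of protein-coding genes. Over all 22238 protein-coding genes, 10689 had a promoter peak in all 5 libraries and 7916 in none.

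The regions of the 6 windows were compared in features that the choice of genes did not use. Their median width was 430 bp for GABA and 487 bp for VGLUT regions, against 340 bp for all regions. The median GC content was 51.5% for GABA regions, 49.0% for VGLUT regions and 49.0% for all regions. The ratio of observed to expected CpG, which is near 1 in CpG islands and far lower in the bulk of the genome, had a median of 0.332 for GABA, 0.222 for VGLUT and 0.242 for all regions. By gene the median ratio ran from 0.163 at Slc17a8 and 0.170 at Slc17a6 to 0.523 at Slc32a1 and 0.631 at Slc17a7.

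Among promoter regions, the ratio was 0.655 at Gad1, 0.575 at Gad2, 0.760 at the TSS of Slc32a1, 0.540 at Slc17a6 and 0.220 at Slc17a8. The Slc17a8 promoter region was thus the poorest in CpG among these. The regions with the highest scores outside promoters were of mixed composition. The ratio was 0.505 in the region upstream of Gad1, 0.476 in the leading intronic region of Slc17a6 and 0.225 in the region upstream of Slc17a8.

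Short words bound by factors of neuronal development were searched on both strands in 200 bases at the centre of the leading regions and in promoters from 200 bases before to 30 bases from the TSS. The words were CAGCTG and the more general CANNTG for E-boxes, GATAA for factors of the GATA family, TAATTA for homeodomain factors, AAGGTCA for Nr4a factors, ACAAAG and ACAATG for SOX factors, and GGACAGC and TTCAGCACC as parts of the RE1 element. The central 200 bases were read in all 98687 regions at least that wide, and CAGCTG was present in 18.5%, CANNTG in 68.5%, GATAA in 21.7%, TAATTA in 6.62%, AAGGTCA in 4.00%, ACAAAG in 17.3%, ACAATG in 10.1%, GGACAGC in 4.50% and TTCAGCACC in 0.269%. In 45986 promoters of protein-coding transcripts cut to the same 230 bases, CAGCTG was present in 12.5%, CANNTG in 59.5%, GATAA in 16.8%, TAATTA in 3.20%, AAGGTCA in 2.86%, ACAAAG in 12.9%, ACAATG in 7.96%, GGACAGC in 5.61% and TTCAGCACC in 0.296%.

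The leading regions of Gad1 and Slc17a6 are printed because they held the highest DA scores outside the promoters of a GABA gene and of the gene that separated the cell types, and the region upstream of Slc17a8 because it was high in all libraries but 5-HT replicate 2. Capitals mark the words listed above other than the general CANNTG, on the plus strand of mm9.
Gad1, chr2:70396342-70396541: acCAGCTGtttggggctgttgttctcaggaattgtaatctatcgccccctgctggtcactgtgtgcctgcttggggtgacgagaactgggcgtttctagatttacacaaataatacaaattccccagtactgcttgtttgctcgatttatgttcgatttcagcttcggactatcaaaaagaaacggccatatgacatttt
Slc17a6, chr7:58882766-58882965: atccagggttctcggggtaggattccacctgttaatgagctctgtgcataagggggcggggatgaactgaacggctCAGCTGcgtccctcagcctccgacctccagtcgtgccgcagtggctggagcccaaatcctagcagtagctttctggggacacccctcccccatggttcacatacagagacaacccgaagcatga
Slc17a8, chr10:89092842-89093041: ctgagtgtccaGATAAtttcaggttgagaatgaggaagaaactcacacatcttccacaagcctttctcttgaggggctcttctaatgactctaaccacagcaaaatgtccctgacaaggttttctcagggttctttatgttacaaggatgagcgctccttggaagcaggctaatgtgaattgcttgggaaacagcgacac
The windows of Gad1 and Slc17a6 each held CAGCTG once, and that of Slc17a8 held GATAA once and no CANNTG. None of the 3 held the homeodomain, Nr4a or SOX words or a part of RE1 in these 200 bases. A match describes the letters of a window and does not show that a factor binds there.

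The promoters below are of the main Gad1 transcript and Gad2, with a peak in all 5 libraries, of Slc17a6, high in DA libraries, and of Slc17a7, without a peak, each on its coding strand (plus) with capitals as before.
Gad1, chr2:70399899-70400128: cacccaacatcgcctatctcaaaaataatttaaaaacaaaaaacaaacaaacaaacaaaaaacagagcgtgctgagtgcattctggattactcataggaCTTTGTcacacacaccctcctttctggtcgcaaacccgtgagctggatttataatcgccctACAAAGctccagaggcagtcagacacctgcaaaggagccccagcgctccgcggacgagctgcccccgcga
Gad2, chr2:22477525-22477754: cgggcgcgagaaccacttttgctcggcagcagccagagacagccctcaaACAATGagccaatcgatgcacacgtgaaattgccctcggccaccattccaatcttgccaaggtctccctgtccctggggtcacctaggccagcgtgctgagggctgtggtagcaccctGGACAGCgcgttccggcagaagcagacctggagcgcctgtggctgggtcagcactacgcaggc
Slc17a6, chr7:58877000-58877229: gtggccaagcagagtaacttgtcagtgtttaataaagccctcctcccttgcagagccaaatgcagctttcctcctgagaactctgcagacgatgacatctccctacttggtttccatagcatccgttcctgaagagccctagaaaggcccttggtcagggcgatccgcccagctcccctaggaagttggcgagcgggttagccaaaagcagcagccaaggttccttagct
Slc17a7, chr7:52419091-52419320: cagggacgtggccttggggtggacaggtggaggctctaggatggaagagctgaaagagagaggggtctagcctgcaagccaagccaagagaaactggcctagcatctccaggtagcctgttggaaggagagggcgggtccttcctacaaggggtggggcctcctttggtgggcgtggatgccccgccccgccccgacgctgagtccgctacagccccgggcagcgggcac
The Gad1 promoter held ACAAAG at 2 places, 1 on each strand, and the Gad2 promoter held ACAATG and GGACAGC at 1 place each. CANNTG was present at 1 place in each of the 4 promoters, and those of Slc17a6 and Slc17a7 held no other word of the list. GC content of these 230 bases was 48.7% at Gad1, 62.2% at Gad2, 53.9% at Slc17a6 and 65.2% at Slc17a7, against a median of 57.0% over all promoters. The promoter without a peak was thus the richest of the 4 in GC.

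Promoter regions with the most similar scores were found by Euclidean distance over the 5 libraries, from the promoter region of a member with the highest mean score. The Gad1 promoter was closest to those of Bcor (distance 0.390), a transcriptional corepressor, and Nol3 (0.416). The Gad2 promoter was closest to those of Meis2 (0.258), a homeobox factor, and Pde4b (0.386), a cAMP phosphodiesterase. The upstream promoter region of Slc32a1 was closest to Best3 (0.310) and Uncx (0.317), and the Slc17a8 promoter to 4833427G06Rik (0.184) and Syngr2 (0.193). The Slc17a6 promoter was closest to Gzmk (1.59), scoring 9.01, 12.1 and 12.1 in the DA libraries and 4.38 and 0 in the 5-HT libraries, and Edem2 (2.28). These distances are larger, but Euclidean distance grows with the size of the scores, which were high at Slc17a6. No unusual pattern is therefore read from them.

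Genes around the members in the same pathways were counted by their promoter peaks. Of 6 genes of GABA uptake and breakdown, 5 had a promoter peak in the 3 DA libraries and 4 in both 5-HT libraries, against 58.4% and 48.3% of all protein-coding genes. Slc6a11, which encodes the GABA transporter GAT3, had a promoter peak in every DA library, of 3.59, 5.10 and 4.07, but in no 5-HT library, and Slc6a13 had none in any library. Of 12 genes of glutamate supply and uptake, 12 had a promoter peak in the 3 DA libraries and 9 in both 5-HT libraries, against the same shares. The median difference of the relative mean score between DA and 5-HT libraries was -0.418 for the first list and -0.284 for the second, against -0.283 for all protein-coding genes. The second list was thus at the level of all genes, and the difference of the first from it was not tested.

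Factors of neuronal lineages were listed as markers of other cells that the sorts could hold. Among GABAergic lineage factors, Dlx5 had a promoter peak in every DA library but in no 5-HT library, and Helt had none in any library. Of 11 glutamatergic lineage factors, 9, 10 and 9 had a promoter peak in the DA libraries and 8 and 2 in the 5-HT libraries (81.8%, 90.9%, 81.8%, 72.7% and 18.2%), against 59.2%, 63.0%, 61.3%, 57.7% and 49.1% of all protein-coding genes. Their promoter scores summed to 52.4, 62.7 and 51.7 in the DA libraries and 33.6 and 7.11 in the 5-HT libraries, with Neurod1 the highest on average. Barhl2 had a promoter peak in every DA library, of 3.45, 4.06 and 3.32, but in no 5-HT library. The 3.45 was the lowest peak score of DA replicate 1. Barhl1 had no promoter peak in any library. Scaled by library, the median difference of the relative mean score was 0.343 for these factors, against -0.283 for all protein-coding genes, and a part of such cells in the result at Slc17a6 was not tested. Of the 11 windows, 2 had all DA values above both 5-HT values, and 2 (Neurod1 and Tbr1) had both 5-HT values above all DA values. The summed promoter scores of all protein-coding genes also were higher in the DA libraries, at 112975, 145449 and 124274 against 79491 and 53592.

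The following counts stand beside the same shares of all protein-coding genes, 49.1 to 63.0%. Of the 7 genes for other transmitters found in the annotation, 2, 3 and 3 had a promoter peak in the DA libraries and 3 and 2 in the 5-HT libraries, and Chat, Dbh, Hdc and Pnmt had none in any library. Slc18a3 was not matched by its symbol. Of 8 non-neuronal markers, 1, 4 and 4 had a promoter peak in the DA libraries and 2 and 1 in the 5-HT libraries. Cx3cr1, Gfap, Pecam1 and Sox10, which mark microglia, astrocytes, endothelium and oligodendrocyte lineage, had no region at the promoter of a protein-coding transcript. The promoter scores of the 8 markers summed to 4.86, 17.4 and 16.2 in the DA libraries and 9.36 and 4.27 in the 5-HT libraries, with Cldn5 the highest on average.

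Th served as a scale for the difference at Slc17a6. The Th window had relative mean scores of 1.96, 1.67 and 1.16 in the DA libraries and 0.426 and 0 in the 5-HT libraries, a difference of 1.38 between the means, beside 1.33 for Slc17a6. Its promoter scored 9.91, 10.6 and 8.45 in the DA libraries, lower in DA replicates 2 and 3 than the Slc17a6 promoter and about equal to it in replicate 1. The 2 windows thus differed between the cell types to a similar extent, and the difference between them was not tested. The window of the 5-HT marker Slc6a4, which holds 1 region, had a larger difference in the same direction, 1.53. A difference of this size was thus not particular to DA markers.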

How the data were processed

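The authors sorted the cells, made ATAC-seq libraries and used Trimmomatic and FastQC on the reads, Bowtie2 for alignment (mm9), Picard against duplicates, MACS2 for peaks of each library, BEDOPS to join peaks under 100 bp apart and HOMER for annotation. Tool versions and the peak threshold are not given in the sources used here. The deposited files list 131942 shared regions with a score per library, of unnamed scale, and 0 for no peak.

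Regions were assigned to a gene when they overlapped its body extended by 20 kb by at least 1 bp, with the GENCODE annotation for mm9. Intergenic means outside protein-coding genes. DA and 5-HT libraries (3 against 2, from independent sorts) were compared by two-sided exact permutation tests. These cannot give a p below 0.1, and the sign-flip test within 5 libraries cannot give one below 0.0625. P-values are printed for single genes only. The members and lists were chosen with earlier results of these data known, so none is given over a group of them. One misspelled chromosome name in a line was read as chromosome Y.

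The text names the 6 members with their promoter regions and, for each, the region outside its promoter with the highest lowest DA score. It also names list genes with a promoter peak in all DA and no 5-HT libraries or in no library, Fev, Gata3, Neurod1 and Tbr1 (picked after their values were seen), the highest-scoring gene of some lists, the 2 nearest promoters by score, and neighbours with a promoter in a window. Other regions of the members were picked after their values were seen. Alternatives were other window sizes, equal numbers of peaks, a stricter threshold, merging, other assignments and leaving out libraries. Computations used Python 3.11.15, NumPy 2.4.6, pandas 2.3.3, SciPy 1.17.1 and matplotlib 3.10.9, and were tested on simulated data.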

Additional observations from a re-analysis of the deposited data

How the results depend on the processing

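Of 130 values under alternative settings, 109 kept the direction or, for counts, stayed within 1.5 times the value reported, 10 were in the opposite direction and 11 moved further. With equal numbers of peaks the GABA share (DA minus 5-HT) was -5.56 percentage points, and the regions with a peak in DA libraries alone fell to 0 for GABA and 3 for VGLUT. The VGLUT share was 10.4 percentage points, and the GABA relative mean score differed by -0.274, without overlap. With only the peaks above the median score of each library the GABA relative mean score differed by 0.106, and 1 GABA region was in DA libraries alone. The VGLUT relative mean score (0.245 in the main setting) differed by 1.03 without extension, by 0.634 with 5 kb, by 0.721 with equal numbers of peaks, by 0.482 with the peaks above the median, by -0.248 with a window of 50 kb and by -0.135 with each gene weighted equally. GABA regions in DA libraries alone numbered 1 without extension, 2 with 5 kb, and 2 without Slc32a1. The GABA relative mean score (-0.180 in the main setting) differed by -0.0701 with 50 kb, -0.325 with 5 kb and -0.0794 without promoters of other genes. Leaving out 1 library at a time gave 5.56 to 48.9 percentage points for the GABA share. It gave -0.669 to 0.310 for the GABA relative mean score, the upper end without 5-HT replicate 1. For the VGLUT relative mean score it gave 0.160 to 0.318, the lower end without DA replicate 2. It gave 5 to 8 GABA and 5 to 10 VGLUT regions in DA libraries alone, with 8 and 10 without DA replicate 1 and 8 VGLUT regions without 5-HT replicate 1. The GABA minus VGLUT share (DA minus 5-HT; -20.7 in the main setting) was -5.28 percentage points without 5-HT replicate 1, -36.1 without 5-HT replicate 2, -36.1 without extension, -37.0 with 5 kb, -7.13 with 50 kb and -9.63 with each gene weighted equally. Leaving out Slc17a6 or Slc32a1 was chosen after seeing the data. Without Slc17a6 there were 2.22 percentage points for the GABA minus VGLUT share (DA minus 5-HT), -0.844 for the VGLUT relative mean score and 1 VGLUT region in DA libraries alone. With equal numbers of peaks as well, the values were 5.56 and -11.1 percentage points for the GABA minus VGLUT share and the VGLUT share, -0.592 for the VGLUT relative mean score and 0 regions. The cause was not tested. Replicate numbers 1 and 2 are shared by the cell types, but the sorts were independent and the numbers only name the libraries. Deviations from the group means had a correlation of 0.110 between the libraries numbered 1 and 0.0139 between those numbered 2 over all regions. With the replicate block, the paired differences were 25.0 percentage points for the GABA share, 45.8 for the VGLUT share, -20.8 for GABA minus VGLUT, and -0.159 and 0.318 for the GABA and VGLUT relative mean scores. Over the 5 libraries, GABA minus VGLUT shares averaged -12.0 percentage points and ranged from -25.0 to -2.83 under the alternatives. Unknown read depth limits all comparisons of shares.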
